A study of Rattus norvegicus with 47 samples.

Results

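The genes described here encode 8 subunits of the GABA-A receptor, the alpha subunits Gabra2, Gabra3, Gabra4, Gabra5 and Gabra6, the beta subunits Gabrb1 and Gabrb2, and the delta subunit Gabrd. They were found by matching the gene identifiers of the count tables to rat gene symbols, and all 8 were present among the 15319 genes listed for each brain region. The animals were Sprague-Dawley rats that inhaled PCB52, a tetrachlorinated biphenyl, through the nose for 4 h daily over 28 days, or were sham-exposed, with groups assigned at 42 days of age in females and 39 days in males. RNA was sequenced from tissue punches, so each library is a mixture of all cells in the punch. Striatum had libraries of 6 PCB52 females, 6 sham females, 6 PCB52 males and 4 sham males, and cerebellum had 6, 6, 5 and 5 in the same order. By the labels each library comes from 1 animal, and libraries are named below by group and animal number. Some sham libraries held transcripts of both sexes, as given below, and whether these hold RNA of 1 animal was not tested. Total counts per library ran from 5684508 to 8914523 in striatum and from 6524400 to 15865054 in cerebellum.

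GABA-A receptors are chloride channels opened by the inhibitory transmitter GABA, and each is a ring assembled from several subunit types. The alpha subunit sets how strongly GABA and benzodiazepines act, beta subunits complete the GABA binding site and are needed for assembly, and receptors holding the delta subunit lie outside synapses and carry a steady, tonic inhibition. Gabra6 is known as a gene of cerebellar granule cells, where its product pairs with the delta subunit, whereas in forebrain the delta subunit pairs mainly with the product of Gabra4.

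Promoter sequences (RefSeq, build GRCr8, 250 bases before to 50 after 1 start used per gene) were held for 7 of the 8 genes, all but Gabra2. Of these, 4 are shown, because Gabra6 and its neighbour Gabrb2 were both lower in striatum than in cerebellum and Gabra4 and its neighbour Gabrb1 were both higher. For Gabra5, Gabra6, Gabrb1 and Gabrb2 the start used lay inside the annotated bounds of the gene, not at its 5′ end. The annotated 5′ end was at base 36917920 for Gabrb1 and 27438127 for Gabrb2. Capitals mark TTGGC or its reverse complement GCCAA, the short site of nuclear factor I, a family known in mouse to act on Gabra6 in granule cells, and GCGCATGCGC, the site of the factor NRF1. Sequences run 5′ to 3′ on the strand of the gene.
Gabra6 (chr10:27327185-27327484, minus strand): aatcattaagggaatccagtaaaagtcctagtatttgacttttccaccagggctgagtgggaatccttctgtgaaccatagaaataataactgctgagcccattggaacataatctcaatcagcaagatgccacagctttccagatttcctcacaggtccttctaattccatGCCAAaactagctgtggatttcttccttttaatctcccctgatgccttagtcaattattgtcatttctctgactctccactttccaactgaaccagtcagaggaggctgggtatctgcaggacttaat
Gabrb2 (chr10:27439543-27439842, plus strand): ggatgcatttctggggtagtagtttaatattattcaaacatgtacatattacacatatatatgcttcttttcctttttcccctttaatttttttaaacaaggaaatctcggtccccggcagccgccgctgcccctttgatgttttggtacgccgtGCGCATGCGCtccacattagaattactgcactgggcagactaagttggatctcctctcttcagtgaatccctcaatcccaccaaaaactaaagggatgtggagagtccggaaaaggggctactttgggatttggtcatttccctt
Gabra4 (chr14:36944497-36944796, plus strand): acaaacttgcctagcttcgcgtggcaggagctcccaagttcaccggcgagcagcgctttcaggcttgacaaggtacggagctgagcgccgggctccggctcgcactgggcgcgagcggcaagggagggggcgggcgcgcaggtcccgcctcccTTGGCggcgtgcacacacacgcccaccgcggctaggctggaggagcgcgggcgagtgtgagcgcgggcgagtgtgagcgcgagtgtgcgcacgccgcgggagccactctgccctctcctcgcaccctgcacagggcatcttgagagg
Gabrb1 (chr14:36902844-36903143, minus strand): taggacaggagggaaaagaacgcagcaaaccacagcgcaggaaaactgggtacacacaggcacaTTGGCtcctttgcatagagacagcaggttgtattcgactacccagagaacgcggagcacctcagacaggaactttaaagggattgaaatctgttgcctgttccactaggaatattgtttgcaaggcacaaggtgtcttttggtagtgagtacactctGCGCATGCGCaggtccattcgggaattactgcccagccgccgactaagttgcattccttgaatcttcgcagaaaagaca
The short site was present in 3 of the 7 promoters (Gabra6, Gabra4 and Gabrb1) and in 45.8% of 27457 rat promoters of the same length. The full palindrome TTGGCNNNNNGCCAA, which overlaps the short site, was in 0 of the 7 and in 0.0437% of all promoters. The NRF1 letters, which were searched after these sequences had been read, stood in Gabrb1 and Gabrb2 and in 0.932% of all promoters. An EGR site, GCGTGGGCG, was in 0 of the 7 and in 0.59% of all, and the E-box letters CANNTG were in 2 of the 7 (Gabra5 and Gabra6) and in 71.6% of all. Every motif was sought on both strands. The GC content was 42.3% for Gabra6 and 44.0% for Gabrb2, 70.7% for Gabra4 and 49.3% for Gabrb1, and 39.3% for Gabra3, 76.3% for Gabra5 and 73.7% for Gabrd, against a median of 52.3% over all promoters. These matches describe letters in the window and say nothing of binding.

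Marker genes fitted the region labels. The mean log2 CPM of 12 striatal projection neuron markers was 8.23 to 9.40 in striatal libraries and 2.27 to 3.51 in cerebellar libraries, and that of 10 granule cell markers was 0.883 to 4.69 in striatal and 7.68 to 8.53 in cerebellar libraries. Some libraries stood apart. Transcripts of both sexes (Xist and Eif2s3y both above 3 CPM) were present in striatum of sham male 3 and in cerebellum of sham females 8 and 10 and sham males 9 and 11. Markers of another tissue exceeded the median of the region by over 2 log2 units in striatum of PCB52 female 14 and PCB52 male 19 (cortical neurons), sham female 12 (olfactory bulb), PCB52 female 20 (choroid plexus) and PCB52 female 22 (granule cells), and in cerebellum of sham male 1 (choroid plexus). The mean log2 CPM of 74 ribosomal protein genes was above 9 in cerebellum of PCB52 females 16 and 20 and PCB52 males 15 and 23, and at most 8.66 in every other cerebellar library. Values without them stand beside several of the results.

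All 8 genes differed between the regions. In PCB52 animals 5 of the 8 genes (Gabra2, Gabra3, Gabra4, Gabra5, Gabrb1) were higher and 3 (Gabra6, Gabrb2, Gabrd) were lower in striatum than in cerebellum, and the same split held in sham animals. Calls were made at an adjusted p of 0.05 with the quasi-likelihood F-test of edgeR, over 12446 genes. Regional differences were common, since 76.9% of all genes passed in PCB52 animals, 36.5% higher and 40.4% lower in striatum, and 69.8% passed in sham animals, 34.3% higher and 35.5% lower. The log2 fold change had a median of 0.96 over the 8 genes in PCB52 animals and 0.77 in sham animals, against -0.04 and -0.03 over all genes tested. Levels are in CPM, counts scaled to the TMM-adjusted library size, and are compared for 1 gene between libraries and not between genes, because no transcript lengths were used. In such bulk samples fewer cells of a type and less RNA per cell cannot be told apart.

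Gabra2 and Gabra4, the main alpha subunits of striatal projection neurons, had high counts in every striatal library. Gabra2 was at 67.5 to 135 CPM (median 98.4) in striatum and 2.26 to 16.8 CPM (median 6.37) in cerebellum of PCB52 animals, and at 74.8 to 143 CPM (median 104) in striatum and 4.22 to 12.3 CPM (median 8.35) in cerebellum of sham animals. The regions did not overlap. Its log2 fold change, striatum over cerebellum, was 3.79 ± 0.20 (SE) in PCB52 animals and 3.71 ± 0.21 in sham animals (edgeR adjusted p 5.84e-20 and 2.23e-19). Gabra4 ranged over 71.7 to 145 CPM (median 119) in striatum and 8.58 to 26.8 CPM (median 18.8) in cerebellum of PCB52 animals. In sham animals it ranged over 111 to 190 CPM (median 127) in striatum and 8.10 to 23.5 CPM (median 18.1) in cerebellum. Its regional log2 fold change was 2.72 ± 0.16 in PCB52 animals and 2.88 ± 0.17 in sham animals (edgeR adjusted p 3.11e-18 and 1.76e-18), again with no overlap.

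Gabra5, a subunit of extrasynaptic receptors that is best known from hippocampal pyramidal cells, had the largest ratio in favour of striatum. It was at 19.3 to 87.01 CPM (median 26.6) in striatum and 0.141 to 9.14 CPM (median 0.485) in cerebellum of PCB52 animals. In sham animals the ranges were 19.9 to 56.2 CPM (median 25.9) in striatum and 0.269 to 2.64 CPM (median 0.578) in cerebellum. Striatum exceeded cerebellum by a log2 fold change of 4.78 ± 0.44 in PCB52 animals and 4.63 ± 0.43 in sham animals (edgeR adjusted p 8.74e-13 and 2.16e-12). Cerebellar values rest on few counts, 1 to 75 per library, and 3 counts correspond to 0.187 to 0.498 CPM there. The 2 highest striatal values, 87.01 CPM in PCB52 female 24 and 56.2 CPM in sham female 12, came from libraries low in projection neuron markers (mean log2 CPM 8.23 and 8.86, median over striatal libraries 9.11), and the part of this in the result was not tested. Sham female 12 was also the library high in olfactory bulb markers. Without the libraries high in markers of another tissue the log2 fold change was 4.84 ± 0.46 in PCB52 animals and 4.45 ± 0.47 in sham animals.

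Gabra3, an alpha subunit of synaptic receptors in aminergic and other nuclei, differed less. It was at 9.75 to 45.2 CPM (median 16.8) in striatum and 4.81 to 10.96 CPM (median 7.72) in cerebellum of PCB52 animals, with overlap, and 45.2 CPM came from PCB52 female 14, a library high in cortical markers. It was at 12.3 to 23.7 CPM (median 16.4) in striatum and 4.79 to 9.81 CPM (median 8.53) in cerebellum of sham animals, without overlap. Between regions the log2 fold change was 1.26 ± 0.18 in PCB52 animals and 1.11 ± 0.19 in sham animals (edgeR adjusted p 5.55e-08 and 2.14e-06). Without the libraries high in markers of another tissue these were 0.94 ± 0.16 and 1.16 ± 0.15. Gabrb1 was the gene with the smallest regional difference. It stood at 3.66 to 14.1 CPM (median 7.03) in striatum and 3.12 to 7.35 CPM (median 4.51) in cerebellum of PCB52 animals, and at 3.66 to 10.3 CPM (median 6.62) in striatum and 3.50 to 7.01 CPM (median 4.78) in cerebellum of sham animals. The regions overlapped in both treatments. Its regional log2 fold change was 0.65 ± 0.17 in PCB52 animals and 0.44 ± 0.18 in sham animals (edgeR adjusted p 5.87e-04 and 0.0253). The sham call was lost without the libraries holding transcripts of both sexes (0.43 ± 0.21, adjusted p 0.0755), and without striatum of sham male 1 (0.38, adjusted p 0.0699), sham male 3 (0.40, adjusted p 0.0548) or sham female 8 (0.36, adjusted p 0.0646).

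Gabra6 separated the regions most. In cerebellum it was at 897 to 1187 CPM (median 998) in PCB52 animals and 842 to 1203 CPM (median 1031) in sham animals. In striatum the sham libraries held 0 to 12 counts, 0 to 1.95 CPM (median 0.224), and the striatal mean of 0.371 ± 0.582 CPM (SD, n = 10) was 0.0359% of the cerebellar mean of 1034 ± 91.3 CPM (SD, n = 11). The PCB52 libraries of striatum held 0 to 9 counts in 11 animals and 464 counts, 67.6 CPM, in PCB52 female 22. With that library the striatal mean in PCB52 animals was 0.599% of the cerebellar mean. The fitted log2 fold change was -8.91 ± 0.62 in PCB52 animals and -11.47 ± 0.82 in sham animals (edgeR adjusted p 2.23e-16 and 7.10e-16), and its size depends on how counts near 0 are handled. Without PCB52 female 22 it was -10.99 ± 0.28 in PCB52 animals, and without sham female 12, the sham library with 12 counts, it was -12.19 ± 0.85 in sham animals.

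Gabrd was high in both regions and higher in cerebellum. It was at 68.0 to 134 CPM (median 102) in striatum and 381 to 643 CPM (median 546) in cerebellum of PCB52 animals, and at 87.8 to 146 CPM (median 105) in striatum and 373 to 571 CPM (median 478) in cerebellum of sham animals. No striatal library reached the lowest cerebellar one. Striatum over cerebellum, its log2 fold change was -2.38 ± 0.12 in PCB52 animals and -2.08 ± 0.13 in sham animals (edgeR adjusted p 4.00e-21 and 4.69e-18). Gabrb2, which encodes a widespread beta subunit of synaptic receptors, was at 9.28 to 33.3 CPM (median 25.02) in striatum and 11.7 to 92.8 CPM (median 36.7) in cerebellum of PCB52 animals. In sham animals it was at 7.31 to 30.8 CPM (median 24.7) in striatum and 28.4 to 103 CPM (median 58.8) in cerebellum. The regions overlapped in both treatments, and the log2 fold change was -0.77 ± 0.27 in PCB52 animals and -1.41 ± 0.30 in sham animals (edgeR adjusted p 0.0106 and 6.11e-05). The call in PCB52 animals was lost with the animal as a block (-0.56 ± 0.27, adjusted p 0.0659) and without cerebellum of PCB52 male 13 (-0.57 ± 0.27, adjusted p 0.0540). Without the 4 cerebellar libraries of high ribosomal protein mean it was -1.21 ± 0.23 (adjusted p 1.46e-05). Those libraries, all from PCB52 animals, were chosen after seeing the data and held the 4 lowest cerebellar Gabrb2 values (11.7 to 23.5 CPM). Leaving them out had to move the fold change this way, so that p is no test of the regional difference.

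**Figure D1:**
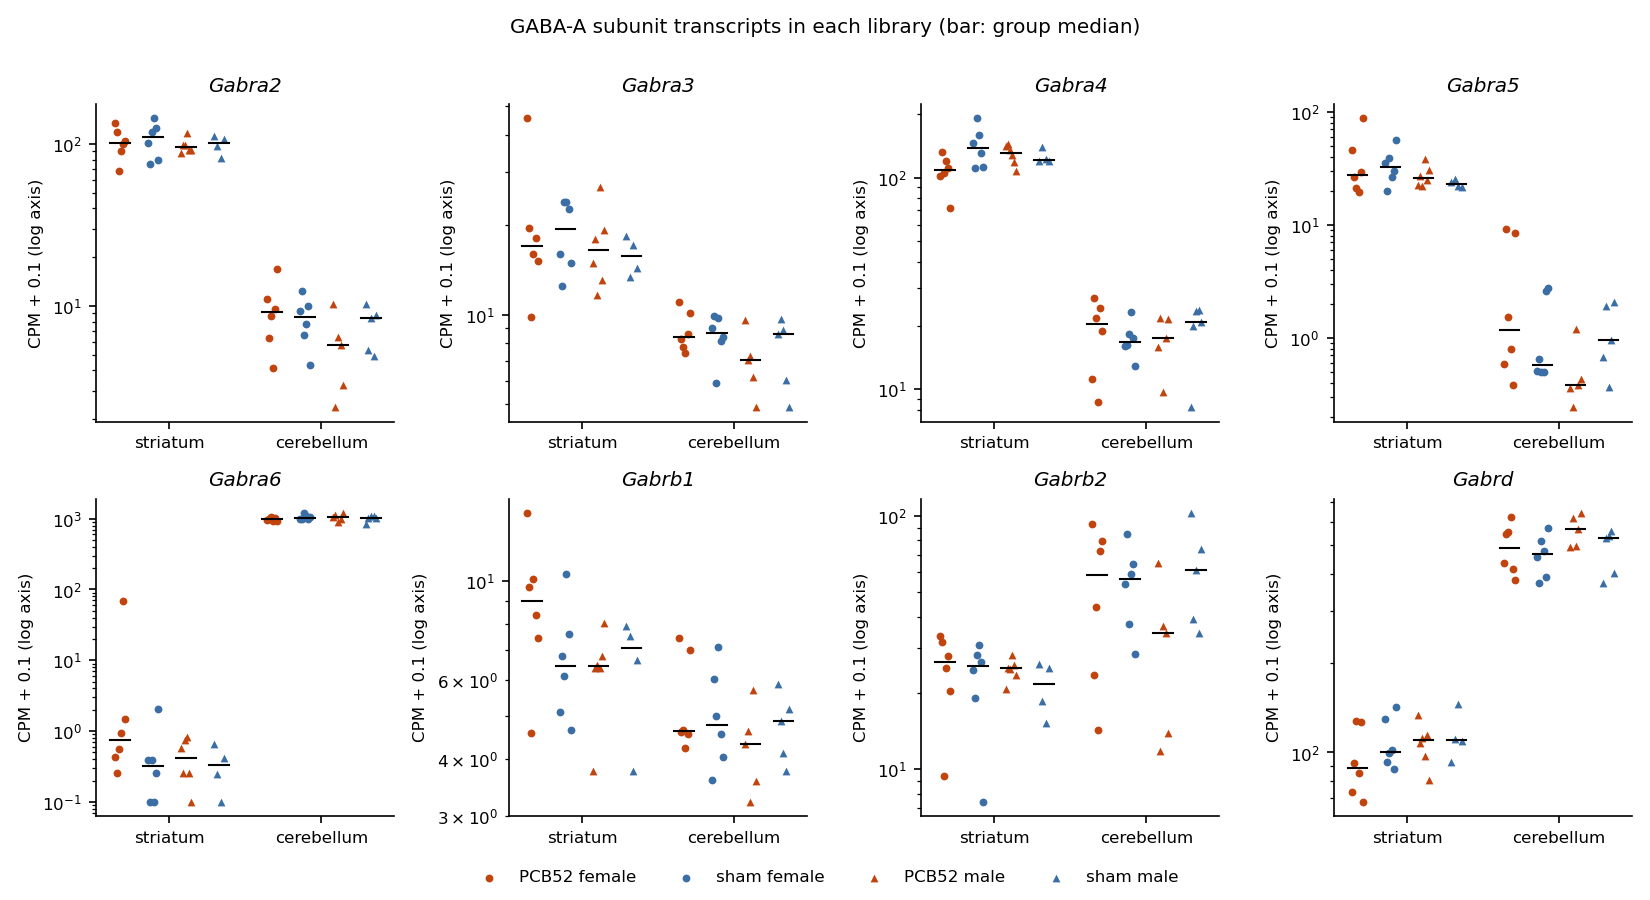
Each point is 1 library, placed by brain region, with CPM plus 0.1 on a log axis and a bar at the median of each group of PCB52 females, sham females, PCB52 males and sham males. Gabra6 stood at 842 to 1203 CPM in cerebellum and at 0 to 1.95 CPM in striatum apart from PCB52 female 22 at 67.6 CPM, whereas PCB52 and sham libraries of a region overlapped in all panels.

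**Figure D2:**
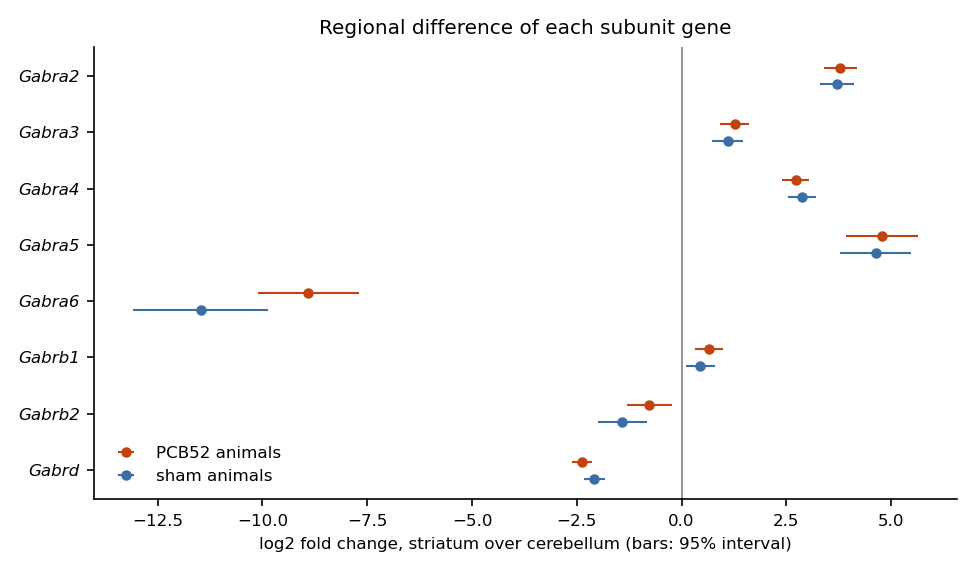
Log2 fold change of each gene, striatum over cerebellum, with bars that show the 95% interval, in PCB52 animals and in sham animals. The 5 genes to the right of 0 were higher in striatum and the 3 to the left were lower, from 4.78 for Gabra5 in PCB52 animals to -11.47 for Gabra6 in sham animals.

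The regions did not overlap for 5 of the 8 genes in PCB52 animals and for 6 in sham animals, the difference being Gabra3. Of all genes tested, 31.1% had regions that did not overlap in PCB52 animals and 30.8% in sham animals. The counts of called members rest on 22 striatal and 22 cerebellar libraries, of which 21 animals gave both. With the animal as a block, 7 of the 8 genes were called in PCB52 animals and 8 in sham animals.

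The 464 counts of Gabra6 in striatum of PCB52 female 22 came with other cerebellar transcripts. Of 17 granule cell and Purkinje cell markers, 12 were over 10 times higher in cerebellum than in the other striatal libraries. In this library each of the 12 exceeded the median of the other striatal libraries, by 3.56% to 8.94% of its cerebellar mean (median 5.81%). The excess of Gabra6 was 6.57% of its cerebellar mean. Fat2, a granule cell protocadherin, was at 58.4 CPM there and at most 2.08 CPM in any other striatal library, and Cbln3, a granule cell cerebellin, was at 29.1 CPM against at most 1.07 CPM. The Purkinje cell gene Ppp1r17 was at 13.99 CPM against at most 4.87 CPM. Not all markers lay outside the other striatal libraries: Zic1 (60.6 CPM, others up to 84.1), Zic2 (33.5 CPM, others up to 58.9) and Pax6 (11.4 CPM, others up to 18.1) lay within their range. Of the 5 markers not over 10 times higher in cerebellum, the Purkinje cell genes Calb1 and Gng13 had an excess of 0.0709% and -2.59%. The part of these values in the Gabra6 level was not tested.

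**Figure D3:**
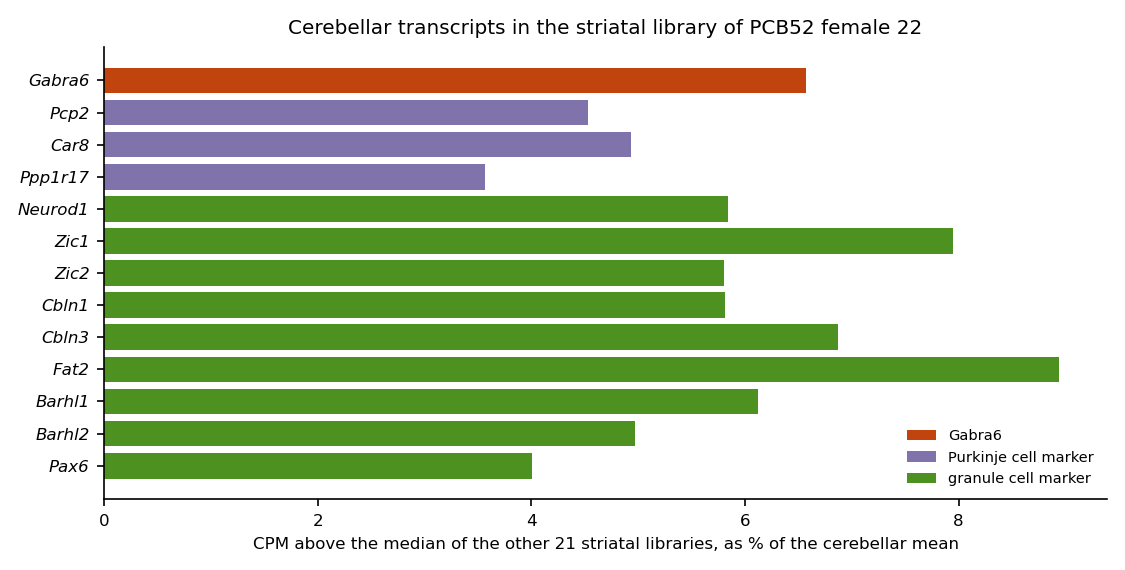
Bars give, for striatum of PCB52 female 22, the CPM of each gene above the median of the other 21 striatal libraries, as a percent of the gene's mean in cerebellum. Gabra6, at 6.57%, lay inside the span of 3.56% to 8.94% covered by the 12 granule cell and Purkinje cell markers.

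Exposure to PCB52 was compared with sham in each sex and region. None of the subunit genes passed an adjusted p of 0.05 with edgeR in striatum of females or males (0 of 7 tested in each, against 0% of 12142 genes) or in cerebellum of females or males (0 of 8 tested in each, against 0% of 11690 genes). Gabra6 was left out in striatum by the filter on low counts. At an unadjusted p under 0.05 there were 1633 genes in striatum of females, 109 in striatum of males, 369 in cerebellum of females and 1673 in cerebellum of males, and DESeq2 called 24, 1, 10 and 1 genes in the same order, while limma called 0. As the mean of both sexes, 0 of 7 members were called in striatum and 0 of 8 in cerebellum (0% of genes in each, 704 and 1727 genes at an unadjusted p under 0.05). No member was called by DESeq2 or limma in these comparisons either. PCB52 and sham ranges overlapped for every member in every sex and region, while 0.527% of genes in striatum of females, 0.371% in striatum of males, 0.265% in cerebellum of females and 0.864% in cerebellum of males did not overlap.

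The member with the lowest p in striatum was Gabra4 in females. Its CPM had a lowest, median and highest value of 71.7, 108 and 132 in PCB52 females and of 111, 139 and 190 in sham females. The groups overlapped, with 3 of the 6 PCB52 females below every sham female. The log2 fold change was -0.40 ± 0.13 (95% interval -0.66 to -0.15), with an unadjusted p of 0.00509 and an edgeR adjusted p of 0.290. In males Gabra4 was at 107, 131 and 145 CPM in PCB52 animals and at 119.7, 120.3, 122.0 and 139 CPM in sham animals, with overlap and a log2 fold change of 0.04 ± 0.14 (edgeR adjusted p 1.00). The female effect minus the male effect was -0.44 ± 0.20 (unadjusted p 0.0339, edgeR adjusted p 0.914), so the sexes were not shown to differ.

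Levels of projection neuron markers are given beside this result. PCB52 females 24 and 14 had the lowest means of the 12 projection neuron markers in striatum (log2 CPM 8.23 and 8.43), and they had Gabra4 at 71.7 and 102 CPM. The summed level of the 12 markers ranged from 5688 to 13092 CPM in PCB52 females and from 10086 to 13107 CPM in sham females, with none of the 12 at 0 in every library, and their part in the result was not tested. Gabra4 had a log2 fold change of -0.31 ± 0.12 without PCB52 female 24 and -0.52 ± 0.17 without the libraries high in markers of another tissue (adjusted p 0.341 and 0.710). In striatum of females the second setting, here and below, leaves out PCB52 females 14, 20 and 22 and sham female 12. It keeps PCB52 female 24, the library with the lowest Gabra4 level, and compares few PCB52 females. Per library, Gabra4 over Gabra2 averaged 1.09 ± 0.33 among PCB52 females (SD, n = 6) and 1.35 ± 0.22 among sham females (SD, n = 6), with overlapping ranges.

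No other member of striatum passed an unadjusted p of 0.05 in either sex. Gabrb1 was at 4.49, 8.94 and 14.1 CPM (lowest, median, highest) in PCB52 females and at 4.55, 6.36 and 10.3 CPM in sham females, a log2 fold change of 0.42 ± 0.24 (edgeR adjusted p 0.411). This was 0.25 ± 0.24 without PCB52 female 14, 0.00335 ± 0.290 without the libraries high in markers of another tissue and 0.0183 ± 0.204 with the ribosomal protein covariate. Gabrd was at 68.0, 88.6 and 127 CPM in PCB52 females and at 87.8, 101 and 143 CPM in sham females, a log2 fold change of -0.19 ± 0.16 (edgeR adjusted p 0.562). Leaving out PCB52 female 22 or 18 gave -0.29 or -0.28, and leaving out PCB52 female 14, PCB52 female 24 or sham female 12 gave -0.12, -0.11 or -0.09. It was -0.09 without the libraries high in markers of another tissue and 0.0326 with the ribosomal protein covariate. For Gabra2, Gabra3, Gabra5 and Gabrb2 the log2 fold change in females was -0.06, 0.12, 0.15 and 0.12, and each was smaller than its SE. In males the 7 log2 fold changes ran from -0.09 to 0.25 and each was smaller than its SE (0.14 to 0.33). The 95% interval for Gabra2 reached from -0.36 to 0.24 in females and from -0.36 to 0.31 in males.

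In cerebellum of females the largest fold change was that of Gabra5, the member with the fewest counts there. It was at 9.14, 8.38, 1.43, 0.692, 0.485 and 0.279 CPM in PCB52 females 16, 24, 18, 20, 14 and 22. Sham females 12 and 10 were at 2.64 and 2.51 CPM and the other 4 at 0.397 to 0.553 CPM. Only PCB52 females 16 and 24 lay above the sham range, and the other 4 PCB52 females lay within or below it. PCB52 over sham, this was a log2 fold change of 1.49 ± 0.76 (unadjusted p 0.0632, edgeR adjusted p 1.00), and it was 0.87 ± 0.76 without PCB52 female 16 and 0.99 ± 0.76 without PCB52 female 24. PCB52 females 16 and 24 also had the highest means of the 12 projection neuron markers among cerebellar libraries (log2 CPM 3.51 and 3.26, others at most 2.97). The summed level of these markers was 391 to 673 CPM in PCB52 females and 426 to 549 CPM in sham females, and their part in the result was not tested.

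In cerebellum of males Gabra5 was at 0.257, 0.141, 1.08, 0.285 and 0.332 CPM in PCB52 animals 13, 15, 19, 21 and 23, and at 0.578, 1.79, 0.269, 0.848 and 1.97 CPM in sham animals 1, 3, 7, 9 and 11. The groups overlapped, on 1 to 8 counts in PCB52 males and 2 to 15 in sham males. The log2 fold change was -1.38 ± 1.05 (edgeR adjusted p 0.374), and the female effect minus the male effect was 2.87 ± 1.30 (unadjusted p 0.0382, edgeR adjusted p 0.774). Between PCB52 females and PCB52 males the log2 fold change was 2.93 ± 0.93 (unadjusted p 0.00491, edgeR adjusted p 0.708). Without PCB52 female 16 the female minus male effect was 2.26 and the difference between PCB52 females and males 2.32. Leaving out PCB52 male 19 gave -2.06 for the male effect, and leaving out the libraries holding transcripts of both sexes gave -1.10.

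Gabrb2 was the member with the lowest p in cerebellum of males. It was at 64.9, 11.7, 36.7, 34.5 and 13.8 CPM in PCB52 males 13, 15, 19, 21 and 23, and at 103, 39.2, 61.2, 34.2 and 73.9 CPM in sham males 1, 3, 7, 9 and 11. PCB52 males 15 and 23 lay below every sham male and the other 3 within the sham range. In males the log2 fold change was -0.95 ± 0.50 (95% interval -1.92 to 0.03), with an edgeR adjusted p of 0.313. PCB52 males 15 and 23 are also the males with a ribosomal protein mean above 9. The log2 fold change in males was -1.07 ± 0.60 without the libraries holding transcripts of both sexes and -0.69 ± 0.52 without the libraries high in markers of another tissue, of which sham male 1 is one. Without the libraries above 9 the log2 fold change was -0.47 ± 0.38 (edgeR adjusted p 0.997), and with the ribosomal protein mean as a covariate it was -0.19 ± 0.13 (edgeR adjusted p 0.857). Both settings were chosen after seeing the data. Gabrb2 ran closely against that mean in cerebellum (r -0.968), so neither setting is a test of exposure. In females Gabrb2 was at 14.1, 58.1 and 92.8 CPM (lowest, median, highest) in PCB52 animals and 28.4, 56.3 and 85.1 CPM in sham animals, a log2 fold change of -0.02 ± 0.45 (edgeR adjusted p 1.00).

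Gabra6 and Gabrd, the 2 members with most counts in cerebellum, gave the narrowest intervals. Gabra6 was at 923, 972 and 1067 CPM in PCB52 females and 978, 1019 and 1203 CPM in sham females, a log2 fold change of -0.12 ± 0.08 (95% interval -0.28 to 0.05). In males it was at 1067, 1134, 897, 988 and 1187 CPM in PCB52 animals and at 842, 1022, 1107, 1076 and 1031 CPM in sham animals, a log2 fold change of 0.04 ± 0.09 (95% interval -0.14 to 0.22). The groups overlapped in both sexes. Gabrd had a log2 fold change of 0.06 ± 0.13 in females and 0.22 ± 0.15 in males (edgeR adjusted p 1.00 and 0.339), and the male value was 0.03 ± 0.09 with the ribosomal protein mean as a covariate. Gabra2, Gabra3, Gabra4 and Gabrb1 had log2 fold changes of 0.15, 0.04, 0.08 and 0.09 in females and of -0.43, -0.14, -0.18 and -0.16 in males, and the only one larger than its SE was that of Gabra2 in males (-0.43 ± 0.39, edgeR adjusted p 0.447). That value was -0.77 without PCB52 male 13, -0.23 without PCB52 male 15, -0.03 without the libraries of ribosomal protein mean above 9 and 0.0823 with that mean as a covariate.

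**Figure D4:**
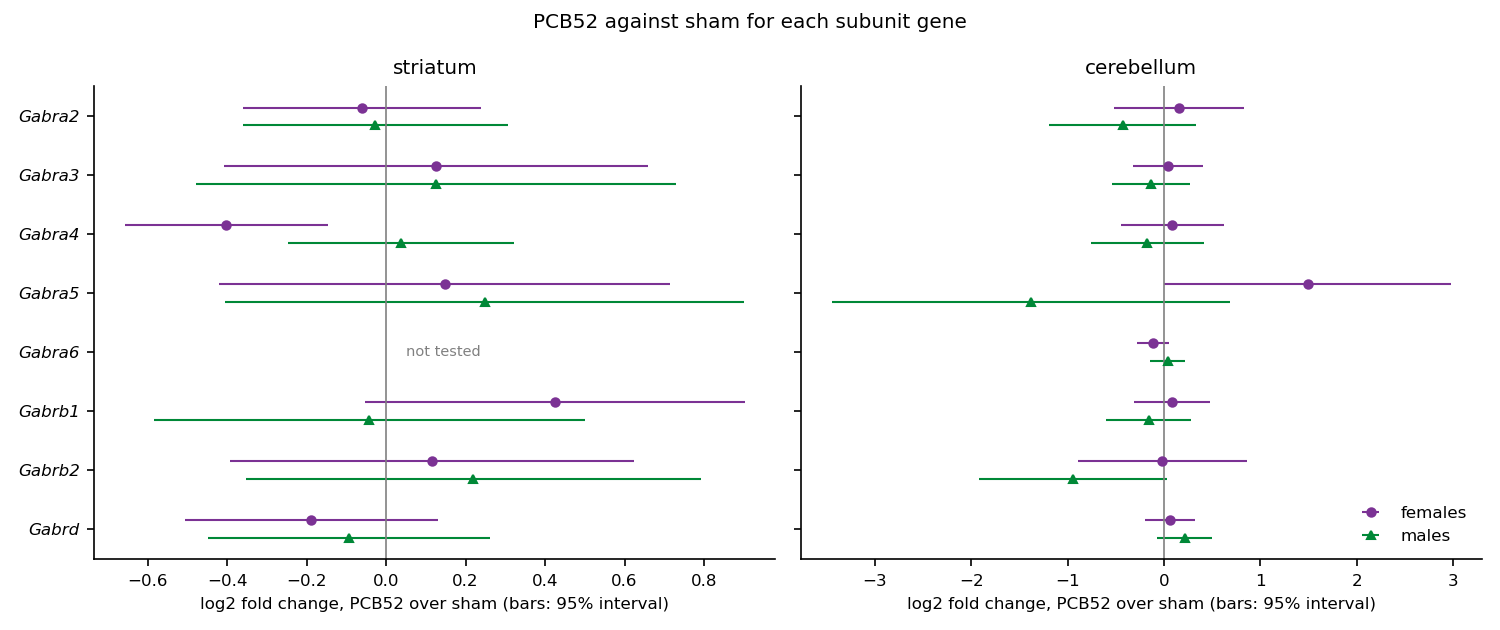
Log2 fold change of each gene, PCB52 over sham, in striatum and cerebellum, with bars that show the 95% interval, for females and for males. The bars are normal intervals from the SE. They leave out 0 for Gabra4 in striatum of females (-0.40, unadjusted p 0.00509) and, narrowly, for Gabra5 in cerebellum of females (1.49), whose test had an unadjusted p of 0.0632, and no adjusted p passed.

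Differences between sexes and between regions in the effect of exposure were tested as well. No member was called for the female effect minus the male effect in striatum (0 of 7, against 0% of genes) or cerebellum (0 of 8, against 0%). Between females and males no member was called in PCB52 striatum (0 of 7, against 0.0412%), sham striatum (0 of 7, against 0.0329%), PCB52 cerebellum (0 of 8, against 0%) or sham cerebellum (0 of 8, against 0%). In cerebellum no gene passed, sex-linked genes included, in a fit with sham libraries that held transcripts of both sexes. The cerebellar comparisons of the sexes therefore cannot show that the members were alike. Gabrb1 in PCB52 striatum had a log2 fold change, females over males, of 0.53 ± 0.25 (unadjusted p 0.0426, edgeR adjusted p 0.948), and Gabra4 of -0.27 ± 0.13 (unadjusted p 0.0499, edgeR adjusted p 0.948). For the striatal minus the cerebellar effect of PCB52, 0 of 8 members were called (against 0% of genes). The largest difference was that of Gabra6, 2.57 ± 1.25 (unadjusted p 0.0463, edgeR adjusted p 0.269), which was 0.48 ± 0.50 without striatum of PCB52 female 22. Next came Gabrb2 at 0.64 ± 0.40 and Gabrd at -0.30 ± 0.16 (edgeR adjusted p 0.331 and 0.295).

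Within a region Gabrb2 and Gabrd ran in opposite directions from library to library. In cerebellum Gabrb2 spanned 11.7 to 103 CPM and Gabrd spanned 373 to 643 CPM. On the log2 CPM scale their Pearson correlation over 22 libraries was -0.881 (Spearman's rho -0.915), and -0.861 without the 2 libraries farthest from the median of Gabrb2. Gabra2 ran with Gabrb2 in cerebellum (r 0.920, rho 0.936). In striatum the correlation of Gabrb2 with Gabrd was -0.511 (rho -0.455) and with Gabra2 0.774 (rho 0.841), and without the 2 farthest libraries they were -0.337 and 0.702. Permutation p-values, adjusted over the 64 relations computed, were 8.0e-05 for both cerebellar relations and for that of Gabra2 with Gabrb2 in striatum, from 1e-05, the smallest these permutations can give. For Gabrb2 with Gabrd in striatum the adjusted permutation p was 0.0362 for Pearson's r and 0.0682 for Spearman's rho.

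Ribosomal protein transcripts ran along the same axis. In cerebellum Gabrb2 correlated with the mean log2 CPM of the 74 ribosomal protein genes at r -0.968 (rho -0.973, -0.975 without the 2 farthest libraries) and Gabrd at 0.833 (rho 0.870, 0.812 without the 2 farthest). Within groups, as deviations from the group means, these were -0.964 and 0.806. Over the 18 cerebellar libraries with a ribosomal protein mean of at most 9 they were -0.964 and 0.784. In striatum Gabrb2 correlated with it at r -0.842 (rho -0.729, -0.709 without the 2 farthest) and Gabrd at 0.697 (rho 0.719, 0.731 without the 2 farthest). The permutation p, adjusted over the 64 relations, was 8.0e-05 for Gabrb2 in both regions and for Gabrd in cerebellum, and 0.00112 for Gabrd in striatum. Gabra6 did not pass with the ribosomal protein mean in cerebellum (r 0.421, permutation p adjusted 0.0991), nor did Gabra4 in either region (r 0.170 in cerebellum and -0.0004 in striatum, adjusted p 0.588 and 0.999).

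The ribosomal protein mean in cerebellum was 7.56 to 9.40 (median 8.20) in PCB52 females, 7.85 to 8.62 (median 8.11) in sham females, 7.97 to 9.82 (median 8.51) in PCB52 males and 7.60 to 8.66 (median 8.06) in sham males. The 4 libraries above 9 were all from PCB52 animals, and the other PCB52 libraries lay at or below 8.51. In striatum the highest mean was 8.99, in sham female 12, the library with the lowest Gabrb2 level, 7.31 CPM. The axis was shared with many genes. In cerebellum 1733 of 10017 genes with a mean of at least 5 CPM followed Gabrb2, as deviations from the group means, with r of at least 0.9 and 1859 with r of at most -0.9, against 36 and 9 genes for Gabrd. Whether it reflects tissue, RNA or library preparation was not tested.

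**Figure D5:**
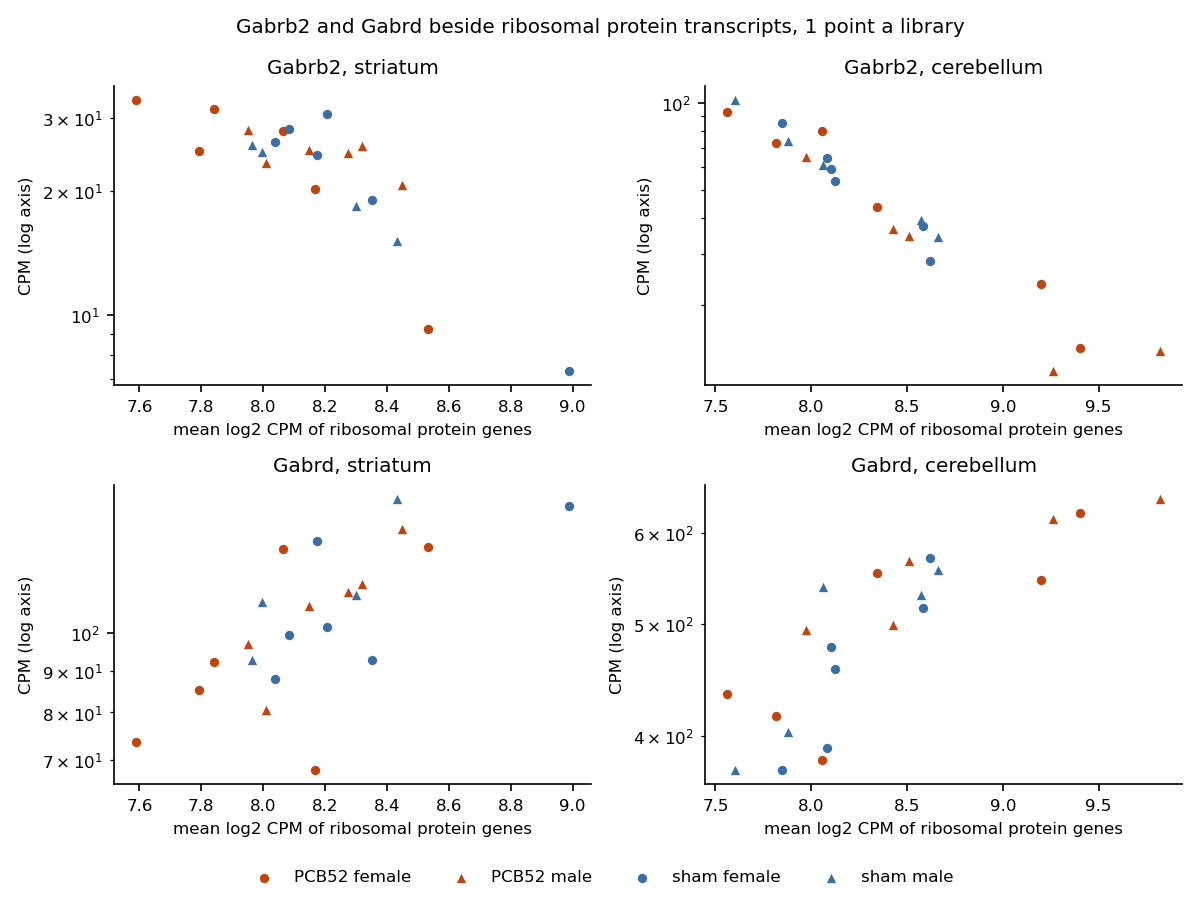
Gabrb2 (upper panels) and Gabrd (lower panels) in striatum and cerebellum, as CPM on a log axis, against the mean log2 CPM of 74 ribosomal protein genes, 1 point a library, coloured by treatment and shaped by sex. In cerebellum Gabrb2 descends along the axis (r -0.968) and Gabrd ascends (r 0.833), with 4 PCB52 libraries at the right end, above 9.

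Pairs of subunits known to assemble were followed as ratios of CPM within a library. In cerebellum the ratio of Gabrd to Gabra6 averaged 0.502 ± 0.0974 among PCB52 females and 0.442 ± 0.0599 among sham females (SD, n = 6 for each), and 0.536 ± 0.0425 in PCB52 males and 0.472 ± 0.0544 in sham males (SD, n = 5 each). In striatum the ratio of Gabrd to Gabra4 averaged 0.905 ± 0.230 among PCB52 females and 0.804 ± 0.263 among sham females (SD, n = 6 for each), and 0.834 ± 0.101 in PCB52 males and 0.918 ± 0.193 in sham males (SD, n = 6 and 4). Ranges overlapped in each pair of groups, and the ratios, which include the libraries that stand apart, were not tested.

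The genes most like each member were ranked by Pearson's r of their deviations from the group means over the 22 libraries of the region where the member was higher, among genes with a mean of at least 5 CPM. These are descriptions over shared libraries. Gabra2 was followed by Zdhhc21, Usp29 and Gprasp1 (r 0.930, 0.920 and 0.913), and Gabra3 by Usp29, Syt1 and Rab9b (0.913, 0.888 and 0.886). Gabra4 was followed by Rasgrp1, an activator of Ras, Gucy1b1, a subunit of soluble guanylyl cyclase, and Kcnab1, a potassium channel subunit (0.929, 0.920 and 0.909). Gabra5 was followed by Kcng2, Tmem35a and Nrip3 (0.904, 0.883 and 0.867), and Gabrb1 by Lmln, Stox2 and Dvl3 (0.921, 0.918 and 0.899). Spearman's rho was 0.776, 0.721 and 0.705 for the 3 genes of Gabra5 and 0.768, 0.877 and 0.864 for those of Gabrb1. In cerebellum Gabra6 was followed by Pak1, a kinase of the cytoskeleton, Lrrn3 and Vsnl1, a neuronal calcium sensor (0.887, 0.886 and 0.886). Gabrb2 was followed by Marchf6, Map2 and Edem3 (0.995, 0.995 and 0.993), and Gabrd by Kcnk1, Rnf34 and Cct7 (0.944, 0.938 and 0.920).

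Genes that serve the receptors were followed as lists. No gene of the 5 lists passed in any PCB52 comparison (edgeR, 0% of all genes). Between regions, 36.5% of all genes were higher and 40.4% lower in striatum in PCB52 animals, and 34.3% and 35.5% in sham animals. Among other GABA-A subunits, 3 of 5 tested genes were higher and 2 lower in striatum, in PCB52 and in sham animals alike. Of the named ones, Gabrg3, a gamma subunit, was at 10.4 ± 2.54 CPM in striatum and 0.529 ± 0.376 CPM in cerebellum of PCB52 animals, and at 11.2 ± 2.82 CPM in striatum and 0.929 ± 0.488 CPM in cerebellum of sham animals (SD, n = 12, 11, 10 and 11), log2 fold changes of 4.24 ± 0.28 and 3.56 ± 0.27. Gabrg1, a gamma subunit found mainly in glia and in some nuclei, had log2 fold changes of 1.43 ± 0.14 in PCB52 animals and 1.14 ± 0.14 in sham animals (edgeR adjusted p 3.23e-12 and 2.57e-09).

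Of 24 tested genes for clustering and trafficking of the receptors, 15 were higher and 5 lower in striatum in PCB52 animals, and 12 and 4 in sham animals, with a median log2 fold change of 0.39 and 0.28. Of all genes tested, 76.9% passed in PCB52 animals (36.5% higher, 40.4% lower) and 69.8% in sham animals (34.3% and 35.5%). Shisa7, an auxiliary subunit of the receptors, was at 292 ± 52.8 CPM in striatum and 6.16 ± 2.90 CPM in cerebellum of PCB52 animals, and at 248 ± 56.8 CPM in striatum and 6.15 ± 2.62 CPM in cerebellum of sham animals. Its log2 fold changes were 5.64 ± 0.22 and 5.34 ± 0.22 (edgeR adjusted p 1.16e-24 and 8.86e-24). Also higher in striatum were Slitrk3, an organizer of inhibitory synapses (2.26 in PCB52 and 2.27 in sham animals), Trak2, a transport adaptor (1.99 and 1.74), and the kinesin Kif5a (1.70 and 1.43). Insyn2a, which encodes an inhibitory synaptic factor, was lower in striatum (-2.80 ± 0.18 and -3.05 ± 0.20).

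Over all genes tested, 76.9% passed in PCB52 animals (36.5% higher, 40.4% lower in striatum) and 69.8% in sham animals (34.3% and 35.5%). Among 8 genes of GABA supply, 5 were higher and 0 lower in striatum in PCB52 animals, and 5 and 1 in sham animals. They include Gad2, a GABA-synthesizing enzyme (1.79 ± 0.16 in PCB52 and 1.63 ± 0.16 in sham animals), Slc6a11, a glial GABA transporter (1.99 ± 0.24 and 1.71 ± 0.24), the vesicular GABA transporter Slc32a1 (0.72 ± 0.07 and 0.85 ± 0.07), and the GABA-degrading enzymes Abat (0.75 and 0.55) and Aldh5a1 (0.61 and 0.36). Of 7 genes of chloride transport, 5 were higher and 0 lower in PCB52 animals, and 2 and 1 in sham animals. The chloride channel Clcn2 was higher in both (1.25 ± 0.06 and 1.03 ± 0.06), as was the kinase Wnk1 (1.15 ± 0.22 and 0.62 ± 0.23). The kinases Wnk3 (1.57 ± 0.34), Oxsr1 (0.49 ± 0.12) and Stk39 (0.22 ± 0.08) were called higher in striatum in PCB52 animals only. In sham animals their striatal means were 4.15, 92.3 and 70.1 CPM and their cerebellar means 2.97, 81.5 and 69.6 CPM. For the striatal minus the cerebellar effect of PCB52, 0 of the 7 genes were called, so the regional difference was not shown to depend on exposure. The chloride importer Slc12a2 was lower in striatum of sham animals (-0.53 ± 0.22, edgeR adjusted p 0.0281), a call lost without the libraries holding transcripts of both sexes, without those high in markers of another tissue, and without any 1 of striatum of sham males 3 and 9 and sham female 12 or cerebellum of sham male 1 and sham female 4. The call of Stk39 was lost without the libraries high in markers of another tissue, without striatum of PCB52 female 20, the library high in choroid plexus markers, and with only the libraries of the groups compared.

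Of 4 tested genes of the GABA-B receptor, the metabotropic receptor for GABA, 2 were higher and 2 lower in striatum in both treatments. Over all genes tested, 76.9% passed in PCB52 animals and 69.8% in sham animals. Kctd16, an auxiliary subunit, was higher (4.25 ± 0.29 in PCB52 and 3.87 ± 0.29 in sham animals), as was the GABA-binding subunit Gabbr1 (0.43 ± 0.05 and 0.44 ± 0.05). Kctd16 averaged 5.33 CPM in striatum and 0.340 CPM in cerebellum of PCB52 animals, and 5.14 and 0.341 CPM in sham animals. Its cerebellar values lie near the level of 3 counts (0.187 to 0.498 CPM), so the size of its fold change is uncertain. The G protein-coupling subunit Gabbr2 (-1.27 ± 0.16 and -1.69 ± 0.18) and the auxiliary subunit Kctd8 (-0.84 ± 0.10 and -0.83 ± 0.11) were lower.

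In the RefSeq annotation of GRCr8, Gabra6 and Gabrb2 lie next to each other on chromosome 10, with no other protein-coding gene between them, and both were lower in striatum than in cerebellum. Gabrb1 and Gabra4 are adjacent on chromosome 14, and Gabra2 follows with Cox7b2 between. These 3 were all higher in striatum. Gabra5 lies on chromosome 1, Gabrd on chromosome 5 and Gabra3 on the X chromosome, each with no other member beside it. Gabra4 and Gabrb1, next to each other, had regional log2 fold changes of 2.88 and 0.44 in sham animals, and Gabra6 and Gabrb2 of -11.47 and -1.41.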

How the data were processed

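Counts per gene were deposited by the authors as 1 table per brain region, with genes named by Entrez identifiers. Per the submitters' processing notes, FastQC and HISAT2 and the build rn6 were used. For the counting tool, the annotation and the strand setting, the entry is not given in the sources used here. Reads of overlapping or antisense genes cannot be told apart. Of 15319 identifiers, 15230 (99.4%) matched a rat symbol. The labels hold 47 samples, of which 44 have a column, and 3 sham samples were not analysed here.

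Counts were tested with edgeR 4.0.16 in R 4.3.3 (filterByExpr, TMM normalization, robust quasi-likelihood F-test, Benjamini-Hochberg adjustment over all genes tested), in 1 fit of 4 groups per region and 1 fit of 8 groups over both regions. Both were checked on simulated data: for the PCB52 comparison in striatum of females, over 12138 genes, 91% of changes of 1 log2 unit and 100% of changes of 2 were called. There were 8 false calls there, and 16 for the same comparison in cerebellum. The simulation changed 100 genes at each size, all with at least 5 CPM, and drew genes independently. It does not show the power for smaller changes, for lower counts or under differences shared by many genes of a library. The SE is the size of the log2 fold change divided by the square root of F, and 95% intervals are normal intervals from it. CPM values use the TMM-adjusted library sizes of the 44 libraries. Shallow libraries give wider errors, and 3 counts equal 0.331 to 0.502 CPM in striatum and 0.187 to 0.498 CPM in cerebellum. Counts of any 2 libraries of a group differed beyond sampling noise (chi-square over degrees of freedom at least 3.58).

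DESeq2 1.42.0, limma 3.58.1, other filters and normalizations, leaving out each library, leaving out libraries that stand apart and the animal as a replicate block were alternatives. The pairing comes from the animal numbers in the labels, and 21 of the 23 animals with counts had both regions. The correlation of an animal's deviations from the group means in the 2 regions, over 10481 genes, had a median of 0.0999 (-0.532 to 0.613) and was over 0.1 in 10 animals. The ribosomal protein mean as a covariate, and the limit of 9 on it, were chosen after seeing the data. All libraries above 9 were from PCB52 animals, and several members correlated with that mean. Values from these settings are therefore descriptions and no test of exposure. Correlations were tested with permutations of all libraries of a region, without regard to treatment or sex. As many genes ran along the axis of Gabrb2 in cerebellum, such p-values are not particular to the subunits. The members and gene lists were chosen with earlier results of these data known. From the 5 other lists, up to 6 called genes with the lowest p are named per comparison, and 5 called genes of these lists are not reported here. Promoter sequences are from RefSeq (GRCr8), a build other than that of the counts.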

Additional observations from a re-analysis of the deposited data

Results flagged for a closer look

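In each group of 4 to 6 libraries, 1 library far from the others was looked for with Dixon's criterion, over 64 groups of 1 gene, and 6 libraries passed it. Chance alone passes about 1 group in 20.

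In striatum, Gabra6 stood at 67.6 CPM in PCB52 female 22, against 0.159 to 1.38 CPM in the other PCB52 females. It stood at 1.95 CPM in sham female 12, against 0 to 0.295 CPM in the other sham females. Gabra3 was at 45.2 CPM in PCB52 female 14, against 9.75 to 19.4 CPM in the other PCB52 females. Gabra4 was at 139 CPM in sham male 3, against 120 to 122 CPM in the other sham males.

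In cerebellum, Gabra4 was at 8.1 CPM in sham male 1, against 19.8 to 23.5 CPM in the other sham males. Gabra5 was at 1.08 CPM in PCB52 male 19, against 0.141 to 0.332 CPM in the other PCB52 males, on 8 counts. All but the last are libraries named above as holding markers of another tissue or transcripts of both sexes.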

How the results depend on the processing

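Between regions, the 8 genes kept their direction under every alternative run. The calls that were lost are those of Gabrb1 in sham animals and Gabrb2 in PCB52 animals given above, and 7 to 8 of the 8 were called in each treatment when 1 library was left out. The number of genes called between regions was 9382 to 9702 in PCB52 animals and 8455 to 8785 in sham animals without 1 library. The replicate block (the animal) gave -0.56 for Gabrb2 in PCB52 animals (adjusted p 0.0659) and changed no other call of the 8 genes. DESeq2 gave no adjusted p for Gabra6.

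In the PCB52 comparisons edgeR called 0 genes. DESeq2 called 24 in striatum of females, 1 in striatum of males, 10 in cerebellum of females, 1 in cerebellum of males, 23 in cerebellum as the mean of both sexes, 4 for the female minus the male effect in cerebellum and 3 for the striatal minus the cerebellar effect. None of these was one of the 8 genes. Between PCB52 females and PCB52 males in cerebellum edgeR called 0 genes, against 9 with DESeq2, 2 with limma, 5 without libraries holding transcripts of both sexes, 1 without those high in markers of another tissue, 4 with only the groups compared, 1 with the ribosomal protein covariate, and 0 to 3 without 1 library. Between sham females and sham males edgeR called 4 genes in striatum, 2 with only the groups compared and 3 to 5 without 1 library, and 0 in cerebellum, 4 without libraries holding transcripts of both sexes and 0 to 2 without 1 library.

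Among members' values larger than their SE, 6 changed sign, none of them called. With the ribosomal protein covariate, Gabrd in striatum of females was 0.0326 and Gabra2 in cerebellum of males 0.0823. Gabrb1 in striatum as the mean of both sexes was -0.0219 without libraries high in markers of another tissue. With limma, Gabra6 in cerebellum was 0.0379 for the female minus the male effect and 0.0325 for PCB52 females over PCB52 males, and the second was 0.00959 without the libraries above 9. The cause was not tested. Of 62 values smaller than their SE, 48 changed sign under some alternative and 0 were called. Among those printed above, Gabrb2 in cerebellum of females changed sign under 9 of 31 alternatives, Gabra6 in cerebellum of males under 6, and Gabra2 in striatum of females and Gabrd in cerebellum of females under 2 each. Low counts limit Gabra5 in cerebellum and Gabra6 in striatum in most libraries. The highest values rest on more counts. Gabra5 had 75 and 57 in cerebellum of PCB52 females 16 and 24, and Gabra6 had 464 in striatum of PCB52 female 22.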
